A study of Mus musculus with 24 samples.

Results

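The genes of the circadian clock were followed through 2 relay nuclei of the newborn mouse thalamus, with and without eyes. The genes were Arntl, Clock, Per1, Per2, Per3, Cry1, Cry2, Nr1d1, Nr1d2 and Dbp, chosen by gene symbol, and were read by 23 of 45101 probe sets and made up 10 of 18194 named genes on the arrays. The set was chosen by function and, like the other gene lists used below, with earlier results of these data known. Dbp in particular was already known to be lower in the enucleated ventrobasal nucleus at P0. Values for that contrast are therefore given below as a description with no test. Each gene was read from its probe set of highest mean signal, on the log2 scale of the deposited robust multi-array average (RMA) values, so that a difference of 1 is a doubling. Probe sets differ in how brightly they bind, and the levels of the members are therefore compared between groups of arrays and are not set against one another.

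The clock is a feedback loop of transcription that runs in nearly every cell. CLOCK and BMAL1 (the product of Arntl) pair up on E-box sequences and switch on the Period and Cryptochrome genes, whose proteins return to the nucleus and block CLOCK and BMAL1. The nuclear receptors REV-ERBα and REV-ERBβ (Nr1d1 and Nr1d2) repress Arntl through sites they share with the ROR receptors, and DBP, itself a target of CLOCK and BMAL1, passes the rhythm on to genes with D-box sequences. In mammals the suprachiasmatic nucleus of the hypothalamus is the master clock, set by light through the retina, whereas the thalamic relay nuclei carry sensory signals to the cortex.

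The 24 arrays held RNA from the ventrobasal nucleus (VB), the relay for touch, and from the dorsal lateral geniculate nucleus (dLGN), the relay for vision, of wild-type mice on a C57BL/6 background at postnatal day 0 (P0) and day 4 (P4). Bilaterally enucleated pups (embBE) had both eyes cauterized in utero and control pups kept their eyes, and no allele or drug differed between them. There were 3 arrays a group, save that the P0 dLGN had 4 arrays from embBE and 2 from control pups, and every array came from tissue pooled over pups of 1 litter and condition. Arrays are called here by the pair of numbers in their labels, such as 35_1, whose meaning is not given in the sources used here. Nothing says that the arrays of a group came from separate litters, so p-values measure the spread between these arrays. The hour of the day at which the pups were killed is not given in the sources used here, so time of day and group cannot be told apart.

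Markers of relay tissue were read first. The 11 measured relay markers stood between the 15.3 percentile of all genes (Lhx2) and the 97.9 percentile (Tcf7l2), with Gbx2 at 44.8, Prox1 at 53.7 and Rorb at 60.0. Slc17a6, the vesicular glutamate transporter of relay neurons, and Tcf7l2, a transcription factor of the thalamus, stood at the 97.8 and 97.9 percentile of all genes, and their lowest arrays read 11.09 and 11.77. The 9 measured markers of the suprachiasmatic nucleus stood between the 3.7 percentile (the neuropeptide gene Vip) and the 82.7 percentile (Rasl11b), with the transcription factor gene Six6 at 8.4 and the neuropeptide genes Grp and Avp at 32.2 and 33.5. Such percentiles place a gene only roughly, since they compare different probe sets. The arrays differed in the spread of their signals: the standard deviation over all probe sets ran from 2.22 to 2.42 in VB and from 2.165 to 2.41 in dLGN. The narrowest in VB were control 35_1 at P0 (2.22) and control 36_3 at P4 (2.26), and the narrowest in dLGN were embBE 39_3 at P0 (2.165) and control 40_1 at P4 (2.185). Values without these arrays are given beside the embBE comparisons below.

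Stretches of promoter are shown for the gene that the results turn on and for the genes that hold the best-known clock elements, with the matching letters in capitals. RefSeq windows of the GRCm38.p6 build, from 250 bases before to 50 bases after a start site, were given for 9 of the 10 genes, all but Per2, in 13 windows. Both strands were searched for the E-box CACGTG, the related CACGTT, the D-box TTATGTAA, the palindromic D-box TTACGTAA, the ROR and REV-ERB site TAGGTCA and the cyclic AMP response element TGACGTCA, none of which overlapped another in these windows. The Dbp stretch runs from base -250 to base -1 before the start site and holds none of these letters:
Dbp, chr7:45704997-45705246, plus strand: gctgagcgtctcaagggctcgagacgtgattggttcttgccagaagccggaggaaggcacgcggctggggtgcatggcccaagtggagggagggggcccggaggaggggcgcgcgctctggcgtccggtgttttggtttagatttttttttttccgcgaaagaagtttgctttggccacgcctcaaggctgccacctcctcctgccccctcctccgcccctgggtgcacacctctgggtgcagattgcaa
The Per3 stretch, from base -227 to base -129, holds TTATGTAA at 2 places, a letter string found in 0.938% of 32851 promoter windows:
Per3, chr4:151044794-151044892, minus strand: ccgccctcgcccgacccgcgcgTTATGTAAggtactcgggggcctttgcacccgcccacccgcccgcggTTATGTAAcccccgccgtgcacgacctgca
The Cry1 stretch, from base -116 to base -18, holds CACGTG, found in 7.15% of windows, and CACGTT on the opposite strand, found in 4.68%:
Cry1, chr10:85185072-85185170, minus strand: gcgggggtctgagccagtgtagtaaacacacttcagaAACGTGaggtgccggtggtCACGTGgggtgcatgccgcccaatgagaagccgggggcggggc
The Per1 stretch, from base -213 to base -114, holds CACGTG:
Per1, chr11:69098736-69098835, plus strand: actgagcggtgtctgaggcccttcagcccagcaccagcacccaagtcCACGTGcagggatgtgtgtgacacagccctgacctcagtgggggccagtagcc
The Arntl stretch, from base 20 to base 48 after a start site, holds TAGGTCA, found in 2.61% of windows:
Arntl, chr7:113207530-113207558, plus strand: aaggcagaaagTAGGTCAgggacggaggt
CACGTT was also found once each in the windows of Cry2 and Nr1d1, both on the strand opposite to the gene. TTACGTAA (0.119% of windows) and TGACGTCA (1.79% of windows) were found in none of the 13. A match is a match of letters and is not a bound site, and the lack of one says nothing of sites outside the window.

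Dbp was the member whose level varied most between groups. Its group means spanned 1.89 log2 units, against 0.31 (Nr1d1) to 1.26 (Nr1d2) for the other 9 genes. That span includes the embBE VB group at P0, in which Dbp was known to be low, so the rank is a description. Without that group the Dbp means ran from 7.54 to 8.83, and those of Nr1d2 from 7.81 to 9.07. In VB at P0 the control arrays read 7.93, 7.61 and 7.41 and the embBE arrays read 6.77, 7.08 and 6.96. In VB at P4 the control arrays read 7.48, 7.89 and 7.60 and the embBE arrays read 7.40, 7.72 and 7.49. All VB arrays of the embBE pups at P0 thus lay below every other VB array.

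In dLGN at P0 the 2 control arrays read 8.27 and 8.78 for Dbp and the 4 embBE arrays read 9.19, 9.49, 8.31 and 8.32. In dLGN at P4 the control arrays read 8.10, 8.46 and 8.67 and the embBE arrays read 8.74, 8.93 and 8.79. Every one of the 12 dLGN arrays lay above every one of the 12 VB arrays. The second, dimmer Dbp probe set overlapped, from 4.81 to 5.52 in VB and from 5.01 to 5.82 in dLGN. Of all genes, 0.517% were lower in VB without any overlap over the 24 arrays. Ranked by mean, the order was VB P0 embBE (6.94 ± 0.16, SD, n = 3), VB P4 embBE (7.54 ± 0.17), VB P0 control (7.65 ± 0.26), VB P4 control (7.66 ± 0.21), dLGN P4 control (8.41 ± 0.29), dLGN P0 control (8.53 ± 0.36, n = 2), dLGN P4 embBE (8.82 ± 0.10) and dLGN P0 embBE (8.83 ± 0.60, n = 4). Neighbours in this order overlapped except at 2 steps, the one above VB P0 embBE and the one between the nuclei. In bulk tissue, fewer cells that express a gene and less RNA per cell cannot be told apart.

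**Figure D1:**
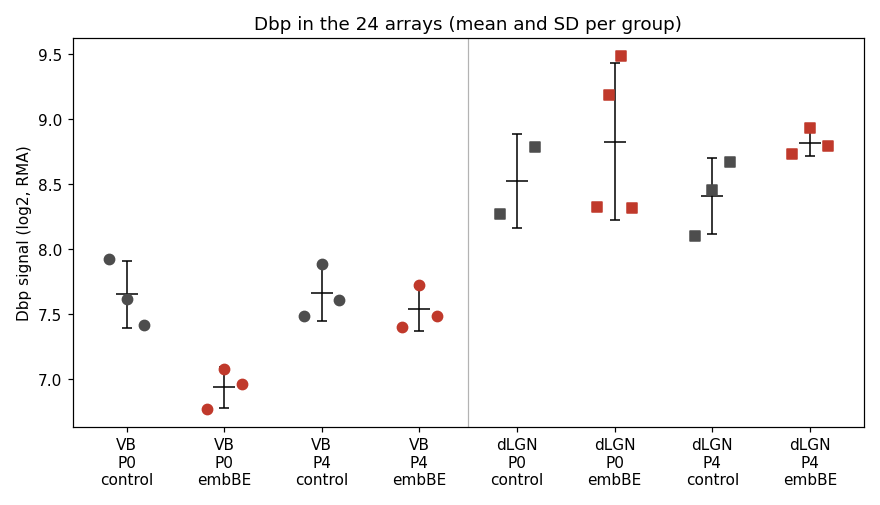
Dbp signal (log2, RMA) in each of the 24 arrays, by nucleus, age and treatment. Circles are VB and squares dLGN, grey is control and red embBE, and the bars give the mean and SD of each group. All VB arrays lie between 6.77 and 7.93 and all dLGN arrays between 8.10 and 9.49.

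The first comparison asked whether loss of the eyes changed clock genes in the spared touch relay at P0. There Dbp was 0.72 lower on the log2 scale in embBE than in control VB (SE 0.16, means 6.94 and 7.65, 1.64-fold), and the 3 embBE arrays lay below the 3 control arrays. The 2 groups did not overlap for 12% of all genes. Arntl was 0.67 higher in embBE (SE 0.30, means 8.66 and 7.99), but the groups overlapped: the controls read 7.17, 8.68 and 8.10 and the embBE arrays 8.47, 8.82 and 8.68. The low control is 35_1, 1 of the arrays of narrow spread. The other 8 genes differed by less than 1.5-fold, from -0.11 (Per3) to 0.41 (Nr1d2). At the threshold of the study (1.5-fold with an unadjusted p under 0.05), 0.726% of all genes were called in this contrast, and since it was the one in which Dbp was found, nothing is read from the count of members. Without arrays 35_1 and 36_3, the difference was -0.58 for Dbp and 0.26 for Arntl. The second Dbp probe set, which is dim, gave -0.15 (SE 0.13), and with the mean of both probe sets Dbp differed by -0.43. The brighter one belongs to a class of probe sets that can bind more than 1 transcript. The dividing-cell markers moved in this contrast too: 3 of 9 were higher in embBE at the threshold of the study, and their summed linear signal ran from 2379 to 2640 in embBE and from 1165 to 2274 in control. The suprachiasmatic list had 2 of 9 lower and its sum ran from 956 to 1086 in embBE and from 1072 to 1534 in control. The GABAergic list had 1 of 15 lower and its sum ran from 619 to 699 in embBE and from 644 to 2364 in control. Their part in the Dbp difference was not tested.

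None of the 10 genes passed the threshold of the study in any other embBE comparison, where 0.159% of all genes were called in VB at P4, 0.445% in dLGN at P0 and 0.198% in dLGN at P4. Unadjusted, Clock in VB at P4 was the only member with a p under 0.05 in these 3 comparisons, where 3.98%, 2.38% and 1.3% of all genes had one. In VB at P4 the largest differences were in Nr1d2 (0.73, SE 0.43) and Arntl (0.44, SE 0.30). Nr1d2 read 8.89, 7.37 and 8.75 in control and 8.98, 9.16 and 9.05 in embBE, with control 36_3 far below the other 5, and over 25 settings the difference ran from 0.09 to 1.01. Clock was 0.37 higher in embBE (SE 0.14, adjusted p = 0.751 in limma), with all embBE arrays above all control arrays. Arntl, Clock, Cry2 and Nr1d2 were the 4 members whose embBE arrays all lay above their controls there, and 12.2% of all genes had groups that did not overlap. These 4 genes also track the spread of the array, as described below, and control 36_3 had the narrowest spread of its age in VB. Without control arrays 35_1 and 36_3 the differences in VB at P4 were 0.25 for Clock, 0.22 for Arntl, 0.12 for Cry2 and 0.24 for Nr1d2.

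Dbp itself differed by -0.12 between embBE and control VB at P4 (SE 0.16, 95% interval -0.46 to 0.21). In dLGN it was 0.30 higher in embBE at P0 (SE 0.31, interval -0.38 to 0.98) and 0.41 higher at P4 (SE 0.30, interval -0.23 to 1.06), where its groups did not overlap, as those of 4.85% of all genes did not. None of these passed (limma, adjusted p = 0.787, 0.851 and 1). Without dLGN arrays 39_3 and 40_1 the Dbp difference was 0.08 at P0 and 0.54 at P4. Without them Nr1d2 in dLGN, whose differences over all arrays were -0.46 and 0.09, differed by -0.25 and -0.34. Over the 10 genes the median difference was 0.08 in VB at P4, -0.05 in dLGN at P0 and 0.07 in dLGN at P4, beside -0.02, 0.03 and 0.01 over all genes. Of the genes around the loop, 15 other clock transcription factors, 13 modifiers of clock proteins and 13 clock-controlled output genes were measured, and none was called in any of the 4 embBE comparisons. Among the 15 factors, Rorb had means of 8.82 in embBE and 8.37 in control VB at P0, read from its brightest probe set. The paper reports Rorb as upregulated in embBE pups at P0 in its arrays, for a region it names the ventral posterior medial nucleus. It also reports higher Rorb there by in situ hybridization at P0 and P4. Which probe set the paper used for its array value is not given in the sources used here.

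**Figure D2:**
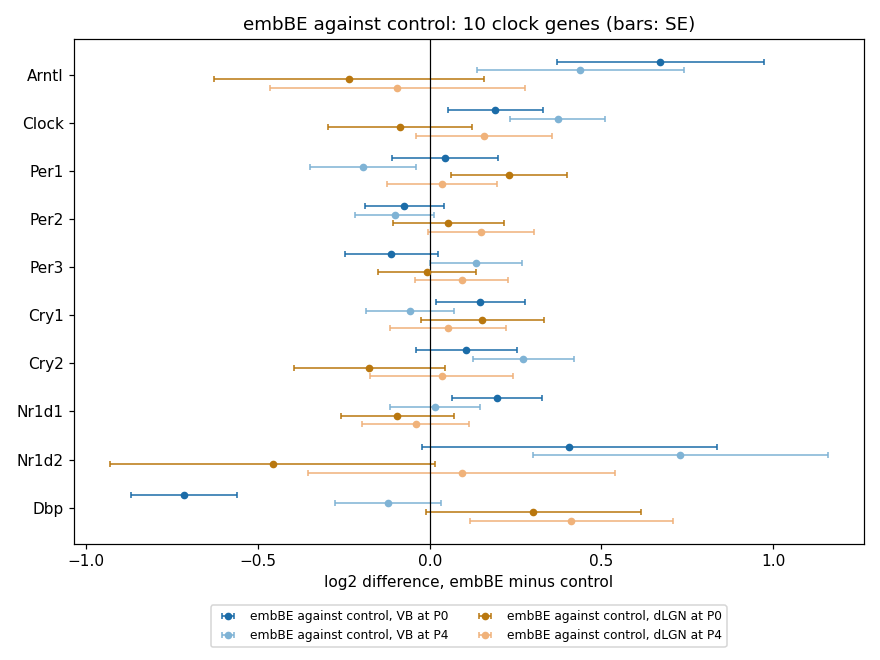
Log2 difference between embBE and control arrays for the 10 genes in the 4 combinations of nucleus and age, with standard errors. Blue is VB and brown dLGN, dark P0 and light P4. Dbp in VB at P0 (-0.72) is the point farthest below 0, and the wide bars of Arntl and Nr1d2 mark the genes that vary most from array to array.

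The next comparison followed the genes from P0 to P4 within a nucleus and treatment. No member passed an adjusted p under 0.05 in limma in any of the 4 age comparisons, where 3.78% of all genes did in control VB, 3.42% in embBE VB, 0.561% in control dLGN and 1.02% in embBE dLGN. Unadjusted, 5 members had a p under 0.05 in embBE VB, 1 in each dLGN comparison and none in control VB, beside 16.9% of all genes in embBE VB, 9.63% in control and 11.7% in embBE dLGN and 19.1% in control VB. The 5 include Dbp, on the P0 arrays in which it was found, so nothing is read from that count. In embBE VB, Dbp was 0.60 higher at P4 (SE 0.16), and its arrays at P4 all lay above those at P0, in a comparison where 38.5% of all genes had groups that did not overlap. In control VB, Dbp differed by 0.01 (SE 0.16). Both comparisons share P0 arrays with the contrast in which Dbp was found, so the Dbp values are a description with no test. In embBE VB, 5 of the 10 genes lay higher at P4 without overlap, Dbp among them, and 2 lay lower, beside the 38.5% of all genes. Nr1d2 moved most, from a mean of 8.21 at P0 to 9.07 at P4. Clock (8.03 to 8.39) and Cry2 (8.62 to 8.90) also lay higher at P4 without overlap. Nr1d2, Clock and Cry2 track the spread of the array, as described below.

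Cry1, which encodes a repressor of CLOCK and BMAL1, had a lower mean at P4 than at P0 in all 4 combinations. The differences were -0.18 (SE 0.13) in control VB, -0.38 (SE 0.13) in embBE VB, -0.41 (SE 0.19) in control dLGN and -0.51 (SE 0.16) in embBE dLGN. In embBE dLGN the P0 arrays read 8.55, 8.21, 8.39 and 8.20 and the P4 arrays 7.95, 7.60 and 7.92, without overlap, which held for 12.1% of all genes. The adjusted p values were 0.4945, 0.144, 0.514 and 0.176 in limma, so none passed, although Cry1 did pass in 4 of 24 settings in embBE VB and in 2 of 24 in embBE dLGN. Per1 and Per2 differed by at most 0.27 between ages in any combination and Per3 by at most 0.33. Of the output genes, Pdk4, a kinase that turns off pyruvate oxidation, rose from P0 to P4 in control VB (1.12, SE 0.18, adjusted p = 0.00654) and in embBE VB (1.24, SE 0.18, adjusted p = 0.00338). Cirbp, a cold-inducible RNA-binding protein gene, fell by 0.54 in embBE VB (SE 0.11, adjusted p = 0.0211). They were the only ones of the 41 genes on the 3 other clock lists to pass in an age comparison. Glial markers also passed: 3 of 12 astrocyte and radial glia markers and 3 of 11 oligodendrocyte markers were higher at P4 in each VB comparison. The summed signal of the astrocyte list went from between 25060 and 34270 at P0 to between 37160 and 45630 at P4 in control VB, and from between 28560 and 30750 to between 42880 and 44070 in embBE VB. That of the oligodendrocyte list went from between 11540 and 14460 to between 14050 and 19920 in control VB, and from between 12300 and 13620 to between 18030 and 19000 in embBE VB. In each VB comparison 1 of 10 microglia and 1 of 9 suprachiasmatic markers were also higher, and in embBE VB 1 of 11 relay markers was lower. Their part in the changes of Pdk4 and Cirbp was not tested.

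**Figure D3:**
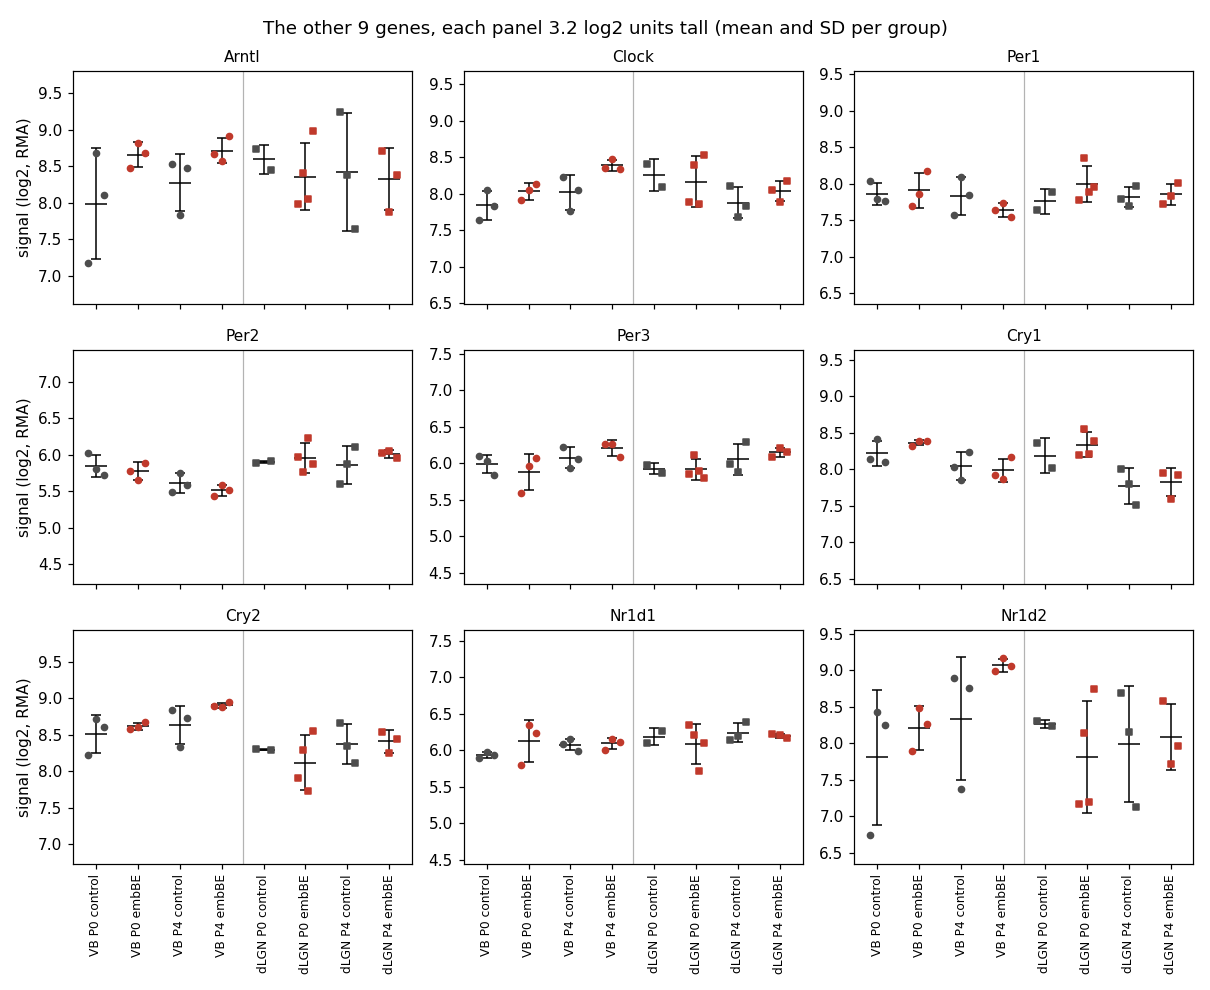
Signal (log2, RMA) of the other 9 genes in each array, by nucleus, age and treatment, with group means and SD. Circles are VB and squares dLGN, grey is control and red embBE. All panels span the same number of log2 units, so that the wide scatter of Arntl and Nr1d2 within groups can be set against the narrow scatter of Per2, Per3 and Nr1d1.

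The nuclei were then compared at each age and treatment. Dbp was lower in VB than in dLGN in all 4 comparisons. At P4 the difference was -1.28 in embBE pups (SE 0.25, 2.44-fold, adjusted p = 0.00351) and -0.75 in control pups (SE 0.25, adjusted p = 0.135), by limma with arrays under the same label numbers as a random block, and the first of these passed. At P0 it was -1.89 in embBE pups (SE 0.24, 3.72-fold) and -0.87 in control pups (SE 0.28). The P0 values use the VB arrays of the contrast in which Dbp was found and are a description with no test. The shares of all genes with an adjusted p under 0.05 were 7.46% and 8.44% in embBE and 1.56% and 3.21% in control pups at P0 and P4. The embBE call at P4 held in 35 of 35 settings, from -1.38 to -0.77, and at P0 the values ran from -2.06 to -1.16, the smallest sizes being those of the mean of both probe sets. The dim second probe set gave -0.42 (SE 0.16) and -0.26 (SE 0.17) in embBE pups at P0 and P4.

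Whether the gap between nuclei was wider in embBE than in control pups was asked at P4, where the difference of the differences for Dbp was -0.53 (SE 0.36, adjusted p = 0.977 in limma) and did not pass. Dbp also read higher in dLGN arrays of narrower spread (Pearson r = -0.613). With the spread as a covariate, which was chosen after seeing the data, the embBE difference was -0.93 at P4 (adjusted p = 0.0135), and at P0 it was -1.62, again as a description. The dLGN array of widest spread, control 24_2 at P4, read 8.10 for Dbp, and the VB array of narrowest spread read 7.93. These are single arrays, and the nuclei do not share the whole range of spread.

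Several marker lists moved between the nuclei in embBE pups beside Dbp. At P0, 5 of 9 dividing-cell markers and 4 of 12 astrocyte and radial glia markers were higher in VB at an adjusted p under 0.05 and 1 of the 12 was lower. The summed linear signal of the dividing-cell list was 2379 to 2640 in VB and 1208 to 1812 in dLGN, and that of the astrocyte list was 28560 to 30750 and 17380 to 23920. The oligodendrocyte list had 2 of 11 higher in VB, with sums of 12300 to 13620 in VB and 9388 to 11040 in dLGN, and the relay list 1 of 11 higher and 2 lower, with sums of 27550 to 29420 and 22830 to 35990. The habenula list had 1 of 11 lower, with sums of 1799 to 1931 in VB and 2215 to 3126 in dLGN, and the vascular list 1 of 11 lower, with sums of 2579 to 3276 and 2413 to 3186. The GABAergic sums were 619 to 699 in VB and 768 to 1261 in dLGN, with none of 15 past the threshold. At P4 the sums of the astrocyte list were 42880 to 44070 in VB and 33650 to 37280 in dLGN, with 1 of 12 higher and 1 lower, and those of the GABAergic list were 688 to 934 and 988 to 1265, with 1 of 15 lower. The dividing-cell sums at P4 were 2612 to 2713 in VB and 1599 to 2232 in dLGN, with none of 9 past the threshold. The oligodendrocyte list had 3 of 11 higher and 1 lower in VB at P4, with sums of 18030 to 19000 in VB and 12730 to 15900 in dLGN. The suprachiasmatic list had 1 of 9 higher at P4, with sums of 1767 to 2244 in VB and 1141 to 1194 in dLGN, the microglia list 1 of 10 higher, with sums of 2210 to 2560 and 2275 to 4789, and the relay list 1 of 11 higher and 2 lower. The 3′ minus 5′ signal of the actin control probe sets, which grows as RNA is shorter, ran in embBE pups from 2.25 to 2.55 in VB and from 3.07 to 4.27 in dLGN at P0, and from 1.98 to 2.06 and from 3.33 to 3.94 at P4. In control pups the ranges overlapped, with 2.20 to 4.29 in VB and 3.25 to 4.05 in dLGN at P0 and 1.95 to 3.14 and 2.21 to 4.13 at P4. The part of the markers and of RNA length in the Dbp difference was not tested.

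Per2, a repressor that is induced by light in the master clock, was 0.50 lower in VB than in dLGN of embBE pups at P4 (SE 0.13, adjusted p = 0.0261 in limma). Its VB arrays read 5.43, 5.58 and 5.52 and its dLGN arrays 6.02, 6.05 and 5.96, without overlap, which held for 55.8% of all genes in this comparison. The call was lost with the mean of the 3 Per2 probe sets (-0.11, adjusted p = 0.31), with the spread of the arrays as a covariate (-0.27, adjusted p = 0.105) and when any 1 of the 6 arrays compared was left out (highest adjusted p = 0.0939). Its other probe sets gave -0.17 (SE 0.15) and 0.35 (SE 0.19) and Per2 was among the genes removed by the filter on dim genes.

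No other member passed in a nucleus comparison. Cry2 came closest, 0.50 higher in VB of embBE pups at P0 (SE 0.18, adjusted p = 0.0781) and at P4 (SE 0.19, adjusted p = 0.0876). Its P4 arrays read 8.90, 8.88 and 8.94 in VB and 8.54, 8.24 and 8.44 in dLGN. Per1, Per3, Cry1 and Nr1d1 differed by at most 0.27 between nuclei in any of the 4 comparisons. Clock was lower in VB in control pups at P0 (-0.41, SE 0.20) and higher in embBE pups at P4 (0.35, SE 0.18), and neither passed. Its next brightest probe sets had means of 7.81 and 7.01. In embBE pups at P4 they read 8.30 to 8.44 and 7.69 to 7.92 in VB, and 7.75 to 7.96 and 6.64 to 7.04 in dLGN. In control pups at P0 the nuclei overlapped in both, though not in the main probe set. A last Clock probe set was dim (3.94) and overlapped in each of these comparisons. Arntl ran from -0.60 (SE 0.41) in control pups at P0 to 0.39 (SE 0.37) in embBE pups at P4, and Nr1d2 from -0.46 (SE 0.54) to 0.98 (SE 0.48) in the same comparisons. Cry2, Clock, Arntl and Nr1d2 track the spread of the array, as described below. In embBE pups at P4 that spread was 2.38 to 2.42 in VB and 2.24 to 2.33 in dLGN. Over 35 settings the differences there ran from 0.09 to 0.61 for Cry2 and from 0.04 to 0.47 for Clock. They ran from -0.44 to 0.58 for Arntl and from -0.12 to 1.23 for Nr1d2.

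**Figure D4:**
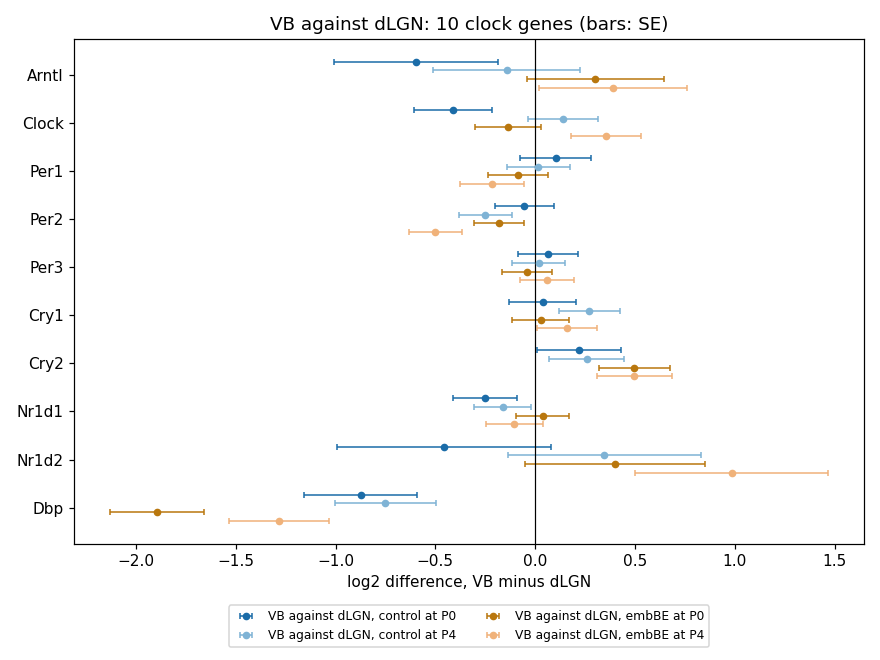
Log2 difference between VB and dLGN for the 10 genes in the 4 combinations of treatment and age, with standard errors. Blue is control and brown embBE, dark P0 and light P4. Dbp lies to the left of 0 in all 4, between -1.89 and -0.75.

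Other transcription factors of the clock also differed between the nuclei, among them a further PAR bZIP gene. Hlf encodes a close relative of DBP that binds the same D-box. It was lower in VB by -1.21 in control pups at P4 (SE 0.25, adjusted p = 0.00568), -1.13 in embBE pups at P0 (SE 0.23, adjusted p = 0.0054) and -0.96 in embBE pups at P4 (SE 0.25, adjusted p = 0.0213), and by -0.92 in control pups at P0 (SE 0.27, adjusted p = 0.121), which did not pass in limma. Over both ages and treatments Hlf ran from 8.37 to 9.41 in VB and from 9.38 to 10.51 in dLGN. Tef, the remaining PAR bZIP gene, named here after its values were seen, differed by -0.26 to 0.04 and was not called. Nfil3, which encodes a repressor that competes for the D-box, was 0.74 higher in VB of embBE pups at P4 (SE 0.21, adjusted p = 0.0317) and 0.61 higher at P0 (SE 0.19, adjusted p = 0.053). Its lowest arrays were those of narrowest spread: embBE 39_3 at P0 and control 40_1 at P4 in dLGN (both 6.81), and control 36_3 at P4 (7.32) and control 35_1 at P0 (7.36) in VB. The part of the spread in the Nfil3 difference was not tested.

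Bhlhe40 encodes a repressor that binds E-boxes. It was 0.77 higher in VB of embBE pups at both ages (SE 0.18 and 0.19, adjusted p = 0.0112 and 0.0161 in limma), and in control pups 0.73 higher at P0 (SE 0.21, adjusted p = 0.10) and 0.66 higher at P4 (SE 0.19, adjusted p = 0.0628). Its 12 VB arrays ran from 7.51 to 8.46 and its 12 dLGN arrays from 6.94 to 7.43, without overlap. Of all genes, 0.456% were higher in VB without any overlap.

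The ROR gene Rorb, whose product acts on the same sites as the REV-ERB receptors, was higher in VB in all 4 comparisons, by 1.59 to 1.77, with adjusted p from 0.000648 to 0.0109 in limma. Timeless, which encodes a replication fork protein linked to the clock, was lower in VB in control pups (-0.86, SE 0.22, adjusted p = 0.0467) and in embBE pups (-0.74, SE 0.18, adjusted p = 0.0177) at P0. In all, 1 of the 15 factors was higher and 1 lower in control pups at each age, 2 higher and 2 lower in embBE pups at P0, and 3 higher and 1 lower in embBE pups at P4.

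Among the 13 modifiers of clock proteins, Fbxw7, a ubiquitin ligase part that marks REV-ERBα for breakdown, was higher in VB in control pups at P4 (0.93, SE 0.25, adjusted p = 0.0438) and in embBE pups at P0 (0.97, SE 0.23, adjusted p = 0.0159) and P4 (1.23, SE 0.25, adjusted p = 0.00482). Ppp1cb, a catalytic subunit of protein phosphatase 1, was higher in VB of embBE pups at P0 (0.59, SE 0.16, adjusted p = 0.0287). Of the 13 output genes, Pdk4 was higher (0.70, SE 0.21, adjusted p = 0.0477) and Rev3l, a DNA polymerase subunit gene, lower (-0.41, SE 0.12, adjusted p = 0.0407) in VB of embBE pups at P4. No modifier passed in control pups at P0, and no output gene in the other 3 comparisons.

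The activators and the REV-ERB gene Nr1d2 varied from array to array with the spread of the array itself, a property of the whole hybridisation. Over the 12 VB arrays, the Pearson correlation of the level with the standard deviation of all probe sets was 0.962 for Nr1d2, 0.953 for Cry2, 0.919 for Arntl and 0.872 for Clock. Over the 12 dLGN arrays it was 0.953, 0.864, 0.936 and 0.642. Per2 went the other way, at -0.749 and -0.829. The permutation p adjusted over the 20 correlations was 0.0462 or less for each of these 10 values (n = 12 arrays).

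Spearman's rho was 0.953, 0.942, 0.62 and 0.883 in VB for Nr1d2, Cry2, Arntl and Clock, with adjusted permutation p of 0.0001, 0.000133, 0.0641 and 0.00124. In dLGN it was 0.958, 0.86, 0.944 and 0.706, with adjusted permutation p of 0.0001, 0.00237, 0.00015 and 0.0262. For Per2, rho was -0.781 and -0.783, both with an adjusted permutation p of 0.00997. Without the 2 arrays farthest from the median spread, r for Arntl in VB was 0.595, so that relation rests largely on 2 arrays, while for the other 3 genes it stayed between 0.836 and 0.858 in VB and, for all 4, between 0.717 and 0.973 in dLGN. Within one age, r for these 4 genes ran from 0.861 to 0.985 in VB and from 0.478 to 0.987 in dLGN.

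Among all genes, 9.96% in VB and 12.7% in dLGN had an r above 0.85, and 18.5% and 20.9% had an r below -0.75, so both relations are ones that these genes share with many others. For Dbp r was -0.35 in VB and -0.613 in dLGN (adjusted permutation p = 0.375 and 0.057, n = 12 arrays). Per1 reached -0.698 in VB (rho -0.76, adjusted permutation p = 0.023 and 0.0128, n = 12 arrays) and -0.153 in dLGN. For Per3, Cry1 and Nr1d1 r lay between -0.291 and 0.365 in both nuclei.

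**Figure D5:**
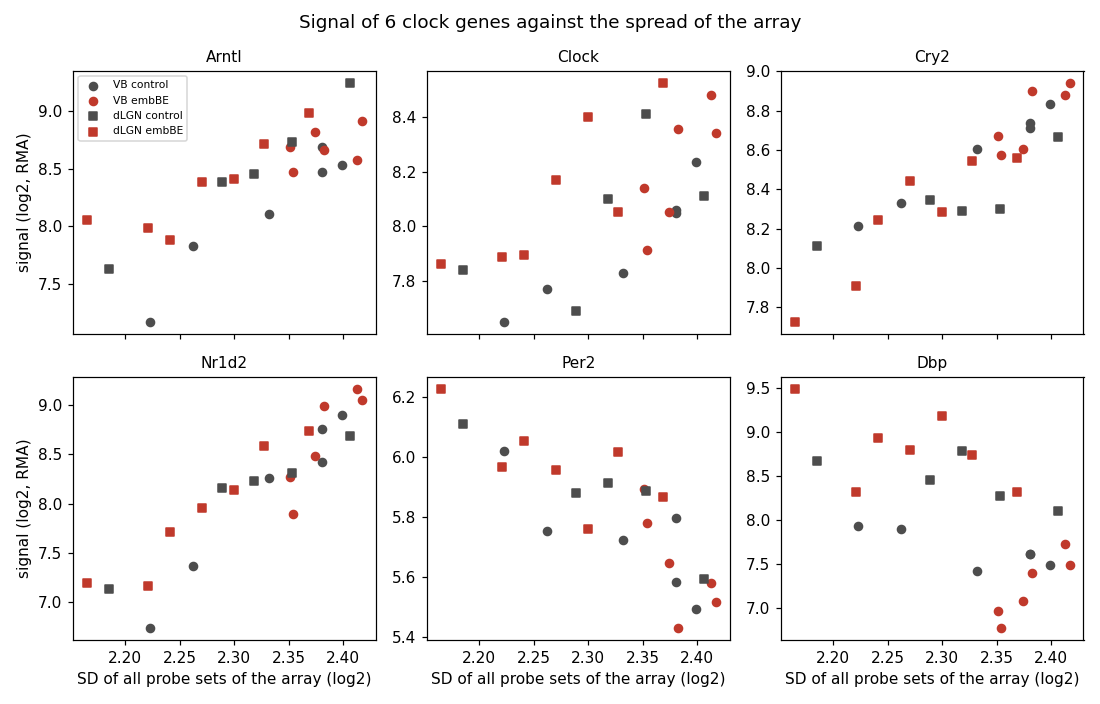
Signal (log2, RMA) of 6 clock genes against the standard deviation of all probe sets of the same array (log2). Circles are VB and squares dLGN, grey is control and red embBE. Arntl, Clock, Cry2 and Nr1d2 rise with the spread and Per2 falls with it. All Dbp values of dLGN lie above all those of VB, and the nuclei do not share the whole range of spread.

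It was also asked whether VB and dLGN arrays under the same label numbers moved together. At P4, where there are 6 such pairs, r ran from -0.664 (Nr1d1) to 0.698 (Clock) over the 10 genes, and none passed the exact permutation test after adjustment over the 10 genes (n = 6 pairs, lowest adjusted p = 0.597). Spearman's rank correlation ran from -0.486 (Per1) to 0.486 (Clock), with an adjusted exact permutation p of 0.919 for each gene. For Dbp r was 0.037 and rho 0.086, and r was -0.004 without the 2 pairs farthest from the median VB level. Without those pairs r for Clock was -0.798 and for Nr1d1 0.997, so the signs of both rest on 2 pairs.

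Genes whose pattern was most like that of a member were looked for over the 24 arrays. The 3 closest to Dbp were Fam53b (r = 0.931), Sipa1l1 (0.924) and Myh7b (0.912). The 3 closest to Arntl were Plekha5, Ddc (both 0.928) and Lhfp (0.925), and the 3 closest to Per3 were Tspan9 (0.77), Slc43a2 (0.742) and Kcnj9 (0.729). All these arrays share the 2 nuclei, 2 ages and differences in spread, and the values are given as a description.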

How the data were processed

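Gene expression was measured in 24 samples with Affymetrix Mouse430_2 arrays, 1 array a sample, after 2 rounds of amplification. The values deposited by the authors are log2 signals normalized by RMA (per the labels and the study's methods; the RMA version is not given in the sources used here). Array data hold no read counts, so the number of arrays limits precision. Strong amplification and the 3' position of probes make signals depend on RNA length and quality.

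Probe sets were named from the platform annotation, with symbols updated through Entrez numbers: 34958 had 1 gene, 932 several and 9211 none, and 64 controls were left out. The brightest probe set by mean over all arrays stood for a gene. limma 3.58.1 (R 4.3.3) was fitted over all 18194 genes with Benjamini-Hochberg adjustment, on the 12 arrays of a nucleus for embBE and age comparisons, and on all arrays for nuclei, where arrays sharing both label numbers formed a random block (correlation -0.0196). embBE comparisons were called at 1.5-fold with an unadjusted p under 0.05, as in the study, and the others at an adjusted p under 0.05. Permutation tests were 2-sided, with 100000 resamples for 12 arrays and exact for 6 pairs (Python 3.11.15, scipy 1.17.1). The fits were also run on simulated data. Its noise was drawn independently for each gene and array, so it says nothing of array spread, RNA length or shared label numbers.

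The members and gene lists were chosen with earlier results of these data known, Dbp in VB at P0 among them, so no p is given for members in that contrast or in differences that contain it, nor for Dbp in other comparisons of its arrays. All 10 members were named. Of the 3 other clock lists, genes past the threshold were named, up to 6 a comparison. The likeness rule named the 3 highest r for Dbp, Per3 and Arntl. Marker lists covered relay and GABAergic neurons, suprachiasmatic nucleus, habenula, glia, vessels, dividing cells and blood. Settings tried were the probe set rule, a filter on dim genes, cyclic loess, median centring, array weights, fewer or more arrays in a fit, a trend and robust prior, the methods' t-test, blocks by label number, and leaving arrays out. The spread covariate and leaving out the 2 narrowest dLGN arrays were added after seeing the data.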

Additional observations from a re-analysis of the deposited data

Results flagged for a closer look

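For Dbp, the embBE effect in VB was -0.72 at P0 and -0.12 at P4, and the P4 effect exceeded the P0 effect by 0.594 (SE 0.22). At P0 the embBE effect was -0.72 in VB and 0.30 in dLGN, and the effect in VB minus that in dLGN was -1.019 (SE 0.37). Both stood out because the effects of the same contrast differed between ages or nuclei by at least 1.5-fold with an unadjusted p under 0.05. That p rests on the arrays in which Dbp was known to be low when the genes were chosen, so it is not given and the differences count as not tested. With the mean of both Dbp probe sets the differences were 0.31 and -0.47. Among the 4 embBE dLGN arrays at P0, the only group large enough to look for an outlying array, none stood apart for any of the 10 genes.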

How the results depend on the processing

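Nr1d2 in the embBE effect in VB against dLGN at P0, at least 1.5-fold over all arrays (0.86), ran from -0.19 to 1.17 over 35 settings. Counts below are of the 10 genes, and the cause of their changes was not tested. The shares of all genes called, given above, are not given for the settings below. Whether a changed count is particular to these 10 genes therefore cannot be told from it.

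In VB at P0, embBE against control (2 genes at least 1.5-fold apart), the count was 0 with the mean of probe sets, with array weights and without control arrays 35_1 and 36_3, 1 with array spread as a covariate, and 0 to 3 with 1 array left out. In VB at P4 (0 genes) leaving out 1 array gave 0 to 1, the 1 being Nr1d2 without P0 control 35_1, and in dLGN at P0 (0 genes) array weights gave 1.

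Counts for age in embBE VB and between nuclei at P0 include Dbp on the VB P0 arrays of the contrast in which it was found. For age in embBE VB (0 genes) the count was 1 with the mean of probe sets, centring or the replicate block, 2 with the spread covariate, 5 with only the 2 groups fitted or without 35_1 and 36_3, 6 with array weights, and 0 to 1 with 1 array left out. It was 1 in control dLGN (0 genes) with array weights, and 1 in embBE dLGN (0 genes) with all 24 arrays or the spread covariate.

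Between nuclei, array weights and the spread covariate gave 1 and 2 in control pups at P0 (0 genes), and 5 and 1 at P4 (0 genes). In embBE pups at P0 (1 gene) the count was 2 with cyclic loess, the spread covariate or without 35_1 and 36_3, 3 with array weights, and 1 to 2 with 1 array left out. In embBE pups at P4 (2 genes) it was 1 without dim genes or with the spread covariate, 6 with array weights, and 1 to 2 with 1 array left out.

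For the embBE effect at P4 against P0 in VB (1 gene at least 1.5-fold apart) the count was 0 with the mean of probe sets, cyclic loess, array weights, the replicate block or without 35_1 and 36_3, and 0 to 1 with 1 array left out. For the embBE effect in VB against dLGN at P0 (3 genes) it was 0 with the mean of probe sets, 1 with the spread covariate or without 35_1 and 36_3, and 1 to 3 with 1 array left out. At P4 (0 genes) it was 1 without the 2 narrowest dLGN arrays. Leaving out 1 of the 2 control dLGN arrays at P0 leaves 1, assumed to vary like the others.

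Whether label numbers pair the arrays cannot be told here, since deviations were taken from the means of very small groups. Deviations of VB and dLGN arrays under the same numbers correlated from -0.552 to 0.718, above 0.1 in 3 of 11 pairs. Those of embBE and control arrays with the same first number at P4 ran from -0.195 to 0.219 in VB, above 0.1 in 1 of 3 pairs. In dLGN they ran from 0.0176 to 0.758, above 0.1 in 2 of 3 pairs. With the first number as a replicate block, Dbp in embBE VB differed by 0.61 between ages. The fit between nuclei with no replicate block gave Dbp -1.89 and -1.28 in embBE pups and changed no call. The small number of arrays limits every comparison, and Per2, Per3 and Nr1d1 were removed by the filter on dim genes.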

Other observations

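Gene lists that respond to hormones and to neuronal activity, both of which feed into the clock, were read beside the members, and the genes named from them were chosen after their values were seen. Klf9, a transcription factor gene induced by glucocorticoid and thyroid hormone, rose from P0 to P4 in all 4 combinations, by 1.48 in control VB (SE 0.24, adjusted p = 0.00565), 1.70 in embBE VB (SE 0.24, adjusted p = 0.00242), 0.92 in control dLGN (SE 0.15, adjusted p = 0.0205) and 0.83 in embBE dLGN (SE 0.12, adjusted p = 0.00987, all by limma). It was the only one of the 12 glucocorticoid-responsive genes to pass in an age comparison. At P4, 3 of 12 astrocyte and radial glia markers and 3 of 11 oligodendrocyte markers were higher in each VB comparison, 1 of the 12 was higher in each dLGN comparison and 1 of the 11 in embBE dLGN, and their part in the Klf9 change was not tested. Of the 15 activity-regulated genes, 1 was higher in VB than dLGN in control pups at P0, 2 in control pups at P4, 3 in embBE pups at P0 and 6 in embBE pups at P4, and none was lower. Bdnf, which encodes a neurotrophin, was among them in all 4 comparisons, by 0.73 to 1.44 (adjusted p from 2.92e-06 to 0.0208 in limma), and Fos in embBE pups at P4 (1.14, SE 0.23, adjusted p = 0.00412).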
